A study of Homo sapiens with 20 samples.

Results

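AP-1, CEBP and STAT3 are families of transcription factors that switch on genes of wound healing, inflammation and the mesenchymal state, and in glioblastoma (GBM) they have been described as regulators of the mesenchymal tumor class. The chromatin loops at the start sites of 10 such genes were examined in GBM cells with and without functional STAG2. The genes were the AP-1 genes FOS, FOSL1, FOSL2, JUN and JUNB, the related ATF3, the CEBP genes CEBPB and CEBPD, the signal-driven factor STAT3, and the helix-loop-helix repressor BHLHE40. A loop here is a pair of 5 kb chromosome segments, called anchors, that lie close together in the nucleus, and its loop strength is the signal given for that pair. An anchor pair belonged to a gene when either anchor lay within 3 kb of an hg19 start site of any of the gene's transcripts. This rule used no strength, and it found 729 of the 572000 anchor pairs listed in at least 1 of the 4 cell lines.

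The parental lines, H4 and 42MGBA, come from human GBM and carry naturally occurring truncating STAG2 mutations. Gene editing restored the STAG2 sequence in their derivatives, H4 88-1 and 42MGBA 53-1 respectively, so that each pair is isogenic but each corrected line is 1 clone. All 4 lines were grown untreated, and Hi-C was performed on 2 biological replicates of each. The replicates were pooled by the authors into 1 list of the 300000 strongest pairs per line, so there was no spread between replicates, no read count behind a value and no test, and every difference describes these 4 lists. The lowest listed strength ran from 4.14 in H4 to 4.49 in 42MGBA, and the medians from 5.17 in H4 to 5.54 in 42MGBA.

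As background, STAG2 is a subunit of cohesin, the ring complex that draws DNA into loops until it meets bound CTCF, most readily when the CTCF motifs at both ends point toward each other. FOS and JUN proteins bind DNA as leucine zipper dimers, CEBP proteins form a related zipper family, and STAT3 enters the nucleus after cytokines such as IL-6 activate JAK kinases. CEBPB and STAT3 together are known for driving mesenchymal gene expression in glioma, and FOSL2, BHLHE40 and RUNX1 have been placed beside them.

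CEBPB had the strongest loop of the group, and the DNA at its ends is shown because the strength of several of its loops differed between the cell lines. The CTCF core motif was searched in the GRCh37 sequence of the anchors on both strands. It occurred in 3.93% of all 128561 listed anchors, 2.02% on the plus and 1.94% on the minus strand. It was found in 3 of 32 anchors at member starts and in 5 of 37 far anchors at local maxima of strength, which were chosen for their strength. The matches at CEBPB are printed 5′ to 3′ along the strand of the match, with the 12-base core in capitals and 9 bases on each side.
CEBPB start, plus strand, core at chr20:48806983-48806994: ccgcctcctCCAGCAGGGGGCgggccgggg
386 kb downstream inside PTPN1, minus strand, core at chr20:49192596-49192607: gcgcggtcaCCACCAGAGGGCagaaagcac
559 kb downstream inside PARD6B, minus strand, core at chr20:49366004-49366015: cagaaaaaaCCACTAGGTGGCcatctcaaa
208 kb upstream at the SNAI1 start, plus strand, core at chr20:48595696-48595707: gcgccttggCCAGCAGAGGGCgccagagga
The plus-strand motif at CEBPB lies in the anchor that holds the start, and the near anchor of the strongest loops is the neighbour just before it. The motif at the CEBPB start thus pointed toward those in PTPN1 and PARD6B, while the one at SNAI1 pointed the same way as that of CEBPB. The far anchor of the strongest CEBPB loop, 274 kb downstream, held no match to these letters, and neither did the strongest far anchors of JUN or STAT3. The far anchor of the strongest BHLHE40 loop of H4 88-1 held none either. The neighbouring anchor, the strongest at BHLHE40 in the other lines, was not among the 37 far anchors examined. The near anchor of the strongest STAT3 loop (chr17:40473044-40477819) held a core on the plus strand. A match is a description of the reference sequence and does not show that CTCF was bound.

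Promoter sequences from RefSeq (GRCh38.p14, 250 bases before to 50 bases after the start) were available for 8 members, of which ATF3 and CEBPB had 2 promoters each. FOSL1 and CEBPD were not among them. Searched on both strands, the AP-1 motif TGANTCA was in 7.71% of all 35116 promoters and the CREB/ATF motif TGACGTCA in 1.85%. The CEBP motif TTGCNNAA was in 10.5%, the STAT motif TTCNNNGAA in 7.66%, and the E-box CACGTG, the site type that BHLHE40 binds, in 7.26%. The CTCF core was in 0.470%. Only 4 member promoters held any of them, each with 1 match. FOSL2 held the AP-1 motif 4 bases past its start, ATF3 a CEBP motif at its second promoter, BHLHE40 an E-box, and CEBPB the CTCF core 137 bases before its first start. The promoters of FOSL2, CEBPB and BHLHE40 are shown, with those matches in capitals, because each holds a motif of its own family or of the loop machinery.
FOSL2, chr2:28392608-28392907, plus strand: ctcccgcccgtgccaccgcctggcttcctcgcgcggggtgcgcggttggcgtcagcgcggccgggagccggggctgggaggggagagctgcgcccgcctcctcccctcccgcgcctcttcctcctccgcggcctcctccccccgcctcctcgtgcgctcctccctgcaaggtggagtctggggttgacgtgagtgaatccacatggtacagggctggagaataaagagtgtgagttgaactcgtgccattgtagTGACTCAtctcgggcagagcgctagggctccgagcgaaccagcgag
CEBPB, chr20:50190333-50190632, plus strand: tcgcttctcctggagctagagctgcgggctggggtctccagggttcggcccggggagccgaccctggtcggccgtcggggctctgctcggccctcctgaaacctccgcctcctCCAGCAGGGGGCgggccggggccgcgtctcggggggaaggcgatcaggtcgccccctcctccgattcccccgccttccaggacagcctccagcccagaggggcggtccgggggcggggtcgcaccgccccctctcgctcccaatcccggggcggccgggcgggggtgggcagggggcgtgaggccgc
BHLHE40, chr3:4979187-4979486, plus strand: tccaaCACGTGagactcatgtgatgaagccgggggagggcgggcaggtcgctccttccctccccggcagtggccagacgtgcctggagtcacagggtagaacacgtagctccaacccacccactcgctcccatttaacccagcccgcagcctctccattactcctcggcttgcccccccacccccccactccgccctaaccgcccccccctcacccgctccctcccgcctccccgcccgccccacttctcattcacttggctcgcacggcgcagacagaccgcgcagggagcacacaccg

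The number of listed pairs differed widely between the genes. JUN had 206, CEBPB 155, FOSL2 104, STAT3 103, CEBPD 84, BHLHE40 29, ATF3 24, FOS 10, FOSL1 9 and JUNB 5. Neighbouring 5 kb anchors give many pairs for what may be 1 contact, so these pairs are not independent of each other. The 42MGBA system listed more of them: 571 in 42MGBA and 537 in 42MGBA 53-1, against 312 in H4 and 347 in H4 88-1. Of the 729 pairs, 336 (46.1%) were listed only in 42MGBA lines and 35 (4.80%) only in H4 lines, where the same shares over all listed pairs were 32.4% and 30.8%. All 4 lines listed 232 (31.8%), against 19.3% of all pairs. By genotype, 21.1% were listed only in STAG2-mutant lines (21.3% of all pairs) and 16.5% only in STAG2-corrected lines (22.8% of all pairs).

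**Figure D1:**
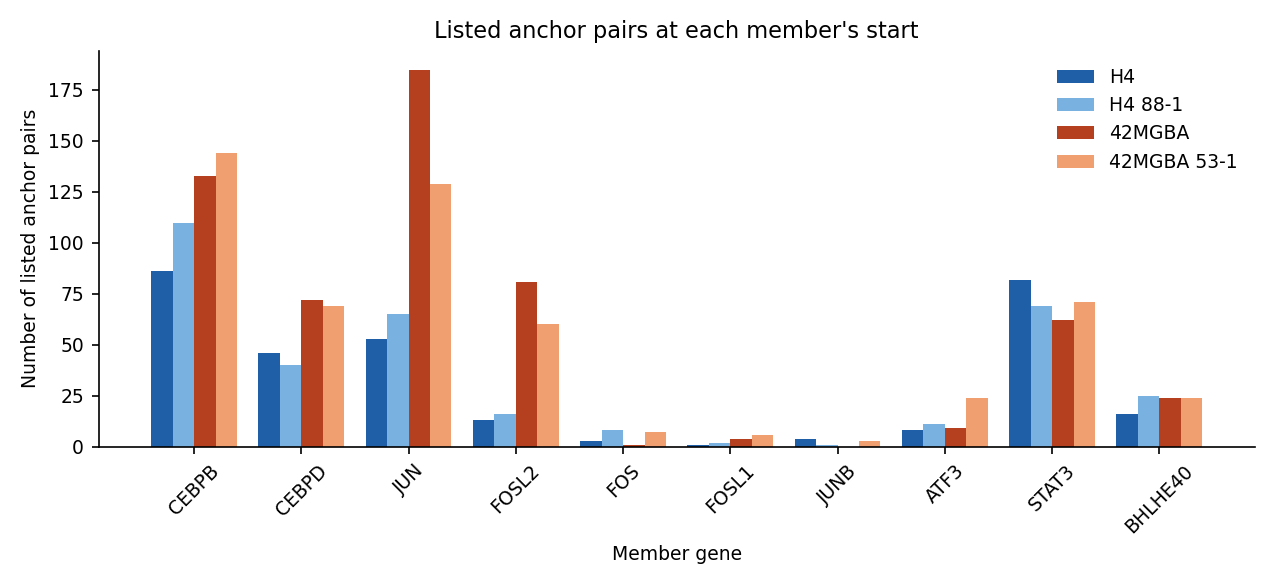
Number of anchor pairs listed at the start of each of the 10 genes (bars, 1 per cell line, 1 pooled list each). JUN, CEBPB and FOSL2 had more listed pairs in both 42MGBA lines than in both H4 lines, and JUNB had none in 42MGBA.

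By the strongest pair, CEBPB led in every line and the order behind it varied. CEBPB reached 25.2 in H4 and 22.3 in H4 88-1, and 35.98 in 42MGBA and 33.7 in 42MGBA 53-1. In H4, JUN (13.9) and STAT3 (12.9) followed, then CEBPD (9.61) and BHLHE40 (8.40), and ATF3 (5.56), FOSL2 (5.38), JUNB (5.23), FOS (4.90) and FOSL1 (4.40) came last. In 42MGBA, JUN (18.7) was followed by CEBPD (14.5), BHLHE40 (11.02) and STAT3 (10.6). In 42MGBA 53-1, CEBPD (11.2) and JUN (11.04) were next to each other behind CEBPB, and STAT3 (7.87) was near ATF3 (7.74) and FOSL2 (7.41). With no replicate spread, the order of such neighbours is not resolved.

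For the comparisons, the 100000 strongest pairs of both lines were merged, and a pair absent from a list was given that list's lowest strength, so that its ratio is a bound. A pair was called higher or lower when the z-score of its residual in a regression through the origin passed the two-sided 0.05 cutoff. Log2 ratios are corrected over mutant within a system, and 42MGBA over H4 between systems. They are given relative to the median of all merged pairs, which was 0.074 for the H4 pair, -0.11 for the 42MGBA pair, 0.096 between the mutant lines and -0.081 between the corrected lines. In the H4 pair, 6 of 158 member pairs (3.80%) were called higher in H4 88-1, where 1.94% of all 129476 merged pairs were, and 3 (1.90%) were called lower, where 2.17% were. In the 42MGBA pair, 1 of 316 member pairs (0.316%) was called higher in 42MGBA 53-1, where 1.61% of all 131211 were, and 18 (5.70%) were called lower, where 2.45% were. All 18 belonged to JUN, and 13 pairs were called lower when residuals were centred on pairs of similar size. The median log2 ratio over the members was -0.088 for the H4 pair and -0.081 for the 42MGBA pair.

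Between systems all calls at members were higher in the 42MGBA lines, while most STAT3 pairs were lower there. The 42MGBA list had 15 of 263 pairs (5.70%) called higher than H4, with 2.11% of all merged pairs, and 0 called lower, with 1.93% of all. The 42MGBA 53-1 list had 15 of 271 (5.54%) called higher than H4 88-1, with 1.92% of all, and 0 called lower, with 2.09% of all. The median log2 ratio was 0.42 between the mutant and 0.40 between the corrected lines. Relative to the median of each pair's own chromosome these fell to 0.11 and 0.12, and the calls of higher strength to 7 and 9. Without CEBPB the medians were 0.32 and 0.16. CEBPB gave 13 of the first 15 and JUN the other 2, and CEBPB gave all 15 of the second.

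**Figure D2:**
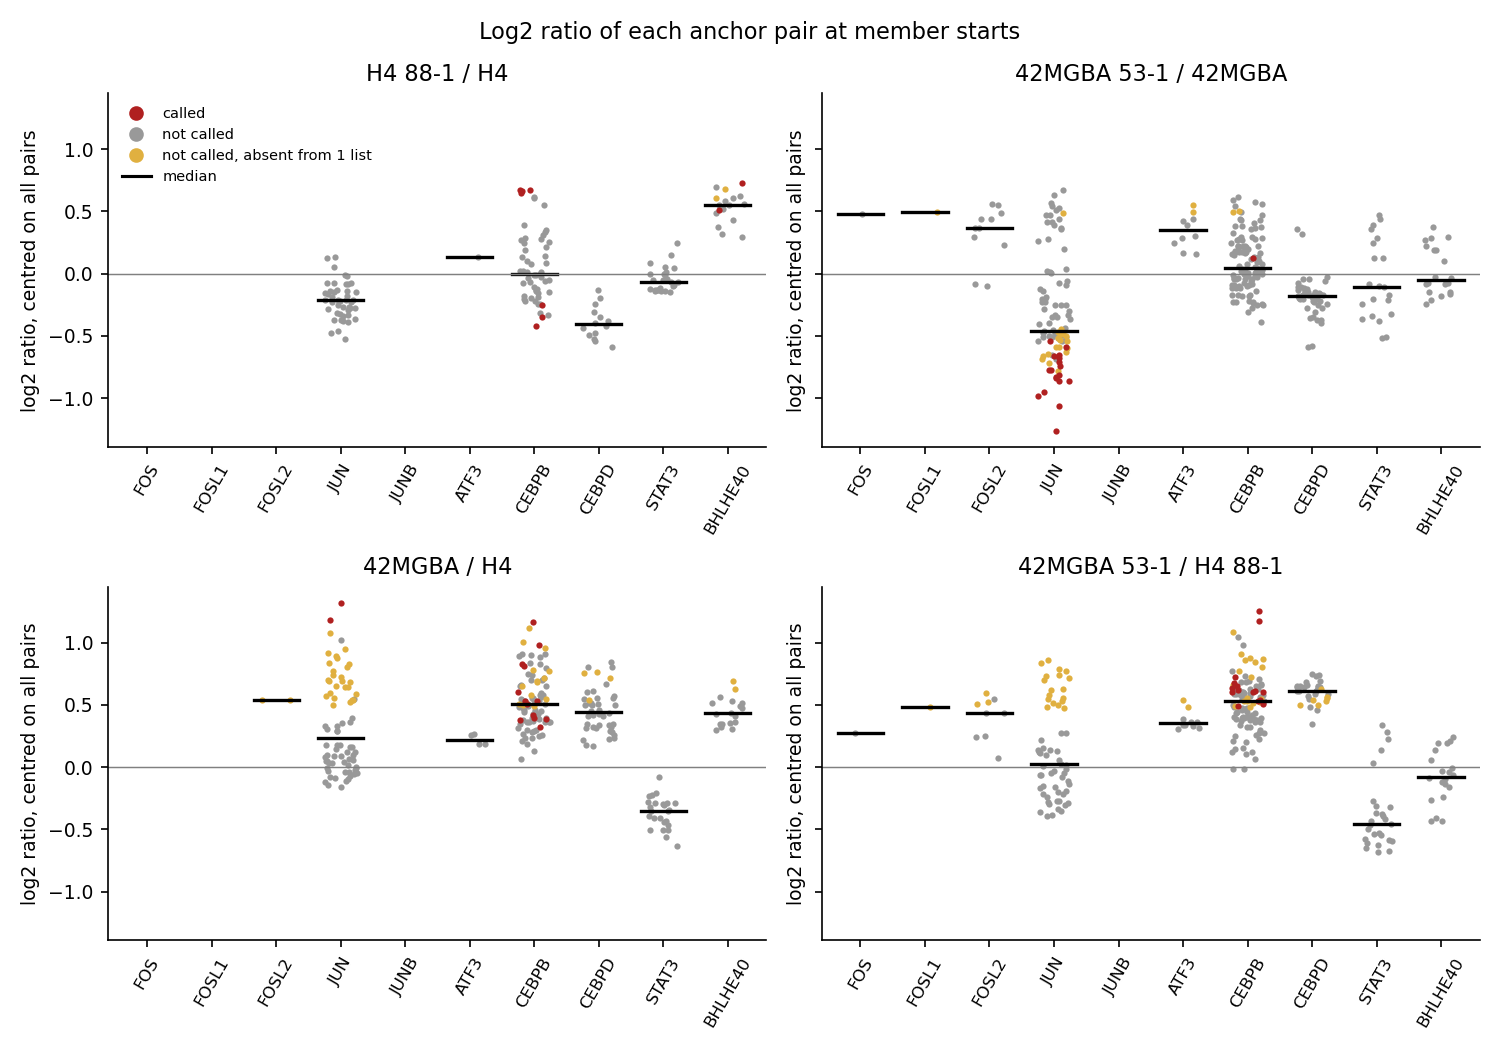
Log2 ratio of the loop strength of each merged anchor pair, relative to the median of all merged pairs, by gene and comparison (the 4 panels). Points are pairs, red where called and yellow where absent from 1 list and not called, and bars are medians; the red points are those of CEBPB and BHLHE40 in the H4 pair, JUN and 1 CEBPB pair in the 42MGBA pair, and CEBPB and JUN between systems.

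JUN, the zipper partner common to most AP-1 dimers, lay on chromosome 1 at 59242517-59249720 on the minus strand (ENSG00000177606.9_9). All of its 206 pairs reached upstream, the farther ones into FGGY, a carbohydrate kinase gene, and the lncRNA LINC01135 starts at the same near anchors. The strongest pair joined the start to chr1:60163603-60168322, inside FGGY and 917 kb away. This pair reached 13.9 in H4 and 13.3 in H4 88-1, and 18.7 in 42MGBA and 11.04 in 42MGBA 53-1. The H4 lines were thus nearly equal, and the 42MGBA lines differed 1.69-fold, with the corrected line the lowest of the 4 and the mutant line the highest.

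Between this far contact and the gene, 42MGBA listed a series of further contacts inside FGGY that the other lines had weakly or not at all. At 785 kb the strongest value was 11.04 in 42MGBA and 4.49 in 42MGBA 53-1, and neither H4 line listed it. At 703 kb it was 8.11 in 42MGBA, and the other 3 lines did not list it. At 650 kb it was 9.07 in 42MGBA, 4.17 in H4 and 4.87 in H4 88-1, and 42MGBA 53-1 did not list it. At the FGGY start, 513 kb away, all 4 lines listed a contact, at 5.81 in H4 and 6.70 in H4 88-1, and 8.88 in 42MGBA and 6.59 in 42MGBA 53-1.

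Closer to JUN the order of the 42MGBA lines turned. At 237 kb, at the start of the lncRNA LINC01358, 42MGBA 53-1 had 7.62 and 42MGBA 6.09, and neither H4 line listed a pair between 217 and 310 kb. The 18 merged pairs of this stretch were all relatively higher in 42MGBA 53-1, with a median log2 ratio of 0.45 in a range of 0.20 to 0.67, and none was called. The 43 merged pairs at 873 to 990 kb had a median of -0.40 in the 42MGBA pair, with 40 negative and 10 called lower. The 11 pairs at 765 to 824 kb had a median of -0.65, with 8 of them absent from 42MGBA 53-1 and 5 called lower. The remaining 3 called pairs lay at 626 to 722 kb.

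Pair size moved with these results. All merged pairs of 873 to 990 kb had a median of -0.20 in the 42MGBA pair and those of 626 to 664 kb a median of -0.14, against -0.69 for the 8 JUN pairs of that size, while all pairs of 217 to 310 kb had 0.031. Relative to pairs of similar size, the JUN median in the 42MGBA pair was -0.26 rather than -0.46, and it was -0.17 with all 300000 listed pairs merged. In the H4 pair JUN had 45 merged pairs with a median of -0.21, 42 of them negative and none called, but all merged pairs of 873 to 990 kb had -0.25, and relative to pairs of similar size the JUN median was 0.037. The lower JUN median of the H4 pair was thus no lower than that of other pairs of its size. Between systems the JUN medians were 0.23 for the mutant and 0.022 for the corrected lines. Relative to pairs of similar size these were 0.53 and 0.15, and relative to chromosome 1 they were 0.053 and -0.20.

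**Figure D3:**
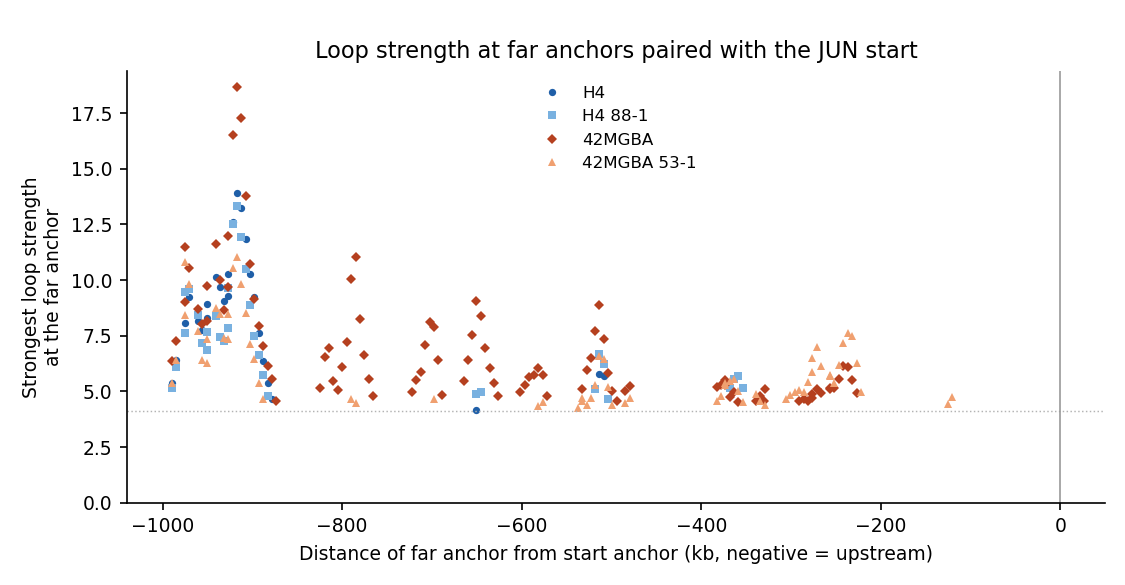
Loop strength (vertical axis, no unit) of the strongest pair at each 5 kb far anchor paired with the JUN start against its distance in kb, negative upstream, in the 4 cell lines (1 pooled list each); the dotted line marks 4.14, the lowest listed strength of any list. 42MGBA had peaks of 18.7 at 917 kb and 11.04 at 785 kb, and 42MGBA 53-1 exceeded it near 237 kb.

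By the rule for likeness, the protein-coding genes on other chromosomes whose median strengths over the 4 lines lay nearest to those of JUN, among 1434 genes compared, were CCN2, LIPG and TTLL5. Their distances were 0.069, 0.085 and 0.089 on the log2 scale. The JUN medians relative to all pairs were 0.17 in H4 and 0.19 in H4 88-1, and 0.80 in 42MGBA and 0.51 in 42MGBA 53-1, and those of CCN2, which encodes a matricellular growth factor, were 0.16, 0.21, 0.73 and 0.50. The JUN values covered 94 pairs, as many as were merged in the 42MGBA pair, against 45 merged in the H4 pair. Many of them thus entered through their strength in the 42MGBA lines, which by itself lowers the H4 values. Over the pairs that each line listed, the JUN median strength went the other way. It was 8.91 in H4 and 7.07 in H4 88-1, and 5.75 in 42MGBA and 5.42 in 42MGBA 53-1. The likeness rests on 4 points per gene and describes the lists only.

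CEBPB, a zipper factor of inflammation and differentiation, lay on chromosome 20 at 48807367-48809205 on the plus strand (ENSG00000172216.6_6), and the antisense transcript CEBPB-AS1 shares its near anchors. Of its 155 pairs all but 4 reached downstream. The strongest joined chr20:48801927-48806783 to chr20:49075457-49080317, 274 kb downstream at no protein-coding start. It ranked 51 in the H4 list, 115 in H4 88-1, 3 in 42MGBA and 1 in 42MGBA 53-1, so that it was the strongest pair of the whole 42MGBA 53-1 list. Both mutant lines had the higher strength, 25.2 against 22.3 in the H4 system and 35.98 against 33.7 in the 42MGBA system, and the 42MGBA lines were both above the H4 lines.

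In the H4 pair CEBPB had calls in both directions, in different places. The 3 pairs called lower in H4 88-1 lay at 274 to 283 kb, in the summit of the strongest contact, and differed only 1.13-fold to 1.27-fold. A z-score of residuals reaches such strong pairs at small folds, and with an intercept or on the log2 scale 0 were called lower. The 4 pairs called higher lay at 381 to 391 kb inside PTPN1, the gene of a phosphatase that acts on JAK kinases, at the minus-strand CTCF core printed above. The strongest was 7.06 in H4 and 11.8 in H4 88-1, a 1.67-fold difference, and it was 13.3 in 42MGBA and 14.6 in 42MGBA 53-1. H4 was therefore the low line of the 4 at this contact. The CEBPB median in the H4 pair was -0.0043, with 27 pairs positive and 28 negative.

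The only called CEBPB pair of the 42MGBA system was 28.1 in 42MGBA and 28.5 in 42MGBA 53-1, at 269 kb. The regression slope over all pairs was 0.897, so that this 1.02-fold difference passed, and on the log2 scale 0 pairs were called higher. The CEBPB median was 0.049, with 71 of 112 pairs positive. At PARD6B, 530.5 to 583.6 kb downstream and around the other minus-strand core, H4 listed no pair, H4 88-1 reached 5.05, 42MGBA 9.95 and 42MGBA 53-1 10.8. Its 12 merged pairs had a median of 0.19 in the 42MGBA pair, with 11 positive.

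The upstream contact of CEBPB ended at SNAI1, the gene of a zinc finger repressor of epithelial genes. It was 5.29 in H4 and 4.47 in H4 88-1, and 7.60 in 42MGBA and 6.22 in 42MGBA 53-1, lower in the corrected line of both pairs, and its 4 pairs were too weak for the H4 merge. Pairs with the PTPN1 start, 327 kb away, had 5.71, 6.07, 6.37 and 7.40 in the same order.

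Between systems all 94 merged CEBPB pairs were positive for the mutant lines, with a median of 0.51, and 110 of 112 for the corrected lines, with a median of 0.53. All merged pairs of chromosome 20 had medians of 0.54 and 0.46 in these comparisons. Relative to its chromosome the CEBPB median was -0.031 between the mutant and 0.072 between the corrected lines. The median difference between systems was thus about that of chromosome 20 as a whole. Relative to pairs of similar size it was 0.48 and 0.56. The medians were 0.50 and 0.51 at 88.0 to 443 kb downstream, and 0.70 and 0.86 at PARD6B. At PARD6B, 10 of 10 merged pairs were absent from the H4 list and 9 of 12 from the H4 88-1 list.

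**Figure D4:**
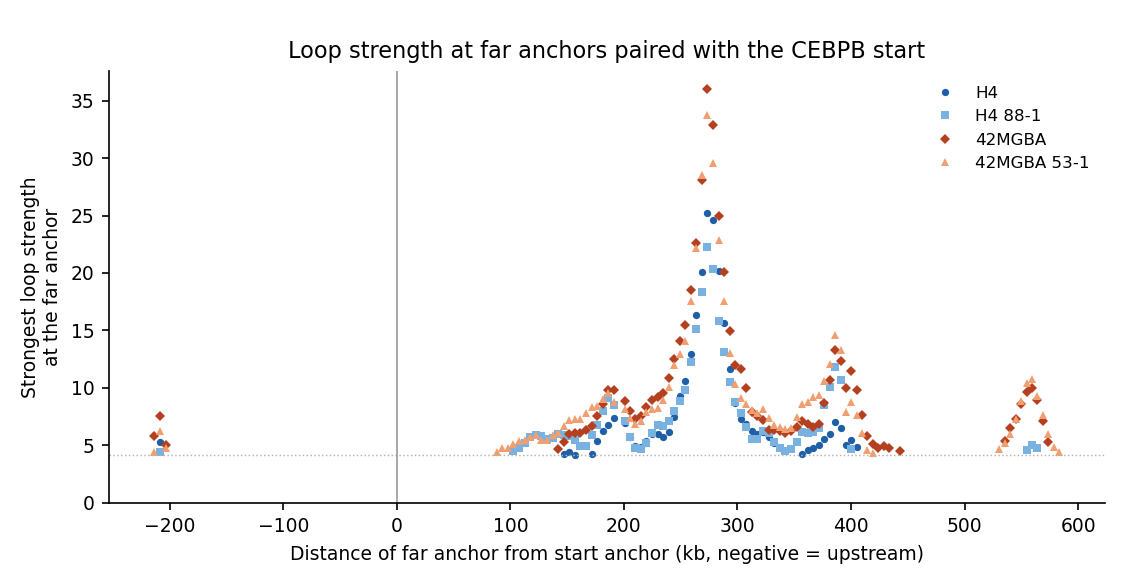
Loop strength (vertical axis, no unit) of the strongest pair at each 5 kb far anchor paired with the CEBPB start against its distance in kb, negative upstream, in the 4 cell lines (1 pooled list each); the dotted line marks 4.14, the lowest listed strength of any list. All lines peaked at 274 kb, H4 was lowest at 386 kb, and H4 had no point at 559 kb.

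CEBPD, the zipper factor induced early in acute inflammation, lay on chromosome 8 at 48649475-48650726 on the minus strand (ENSG00000221869.5_7), and SPIDR, a DNA repair gene with an annotated transcript start at the same near anchors, also held its strongest far anchor, 424 kb downstream. All 84 pairs reached downstream. The strongest pair was 9.61 in H4 and 7.57 in H4 88-1, and 14.5 in 42MGBA and 11.2 in 42MGBA 53-1. Both corrected lines were below their mutant parents, and both 42MGBA lines were above both H4 lines. A second contact 537 kb away had 6.21, 5.03, 8.44 and 6.64 in the same order and the same pattern.

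The 14 merged CEBPD pairs of the H4 pair were all negative, with a median log2 ratio of -0.41. This lay at the 7.98th percentile of the 3210 protein-coding genes with at least 5 merged pairs. Of the 46 pairs of the 42MGBA system 44 were negative, with a median of -0.18, the 26.9th percentile of 3011 genes. Each of the 14 pairs merged in both systems was negative in both, and none was called in either. Relative to pairs of similar size the medians were -0.36 and -0.087, and the H4 pair had -0.17 with all 300000 listed pairs merged. Among the merged pairs, the exception to the downward direction was a nearer contact at 307 kb, also in SPIDR. It had 5.43 in 42MGBA and 6.47 in 42MGBA 53-1, and the H4 lines did not list it. Outside the merge, some weaker CEBPD contacts were higher in a corrected line than in its parent and others were lower. Between systems the CEBPD medians were 0.44 and 0.61, with every pair positive, and the medians of chromosome 8 were 0.18 and 0.025.

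STAT3, the cytokine-responsive factor, lay on chromosome 17 at 40465342-40540558 on the minus strand (ENSG00000168610.16_14) with 28 annotated starts. Only 4 of its 103 pairs lay at the 5′ end of the gene. The others began at internal starts, further inside the gene, so they describe the STAT3 locus rather than its main promoter. The strongest pair ended 200 kb away at an annotated transcript start of ATP6V0A1, a proton pump subunit gene. That start need not be the 5′ end of ATP6V0A1. The pair had 12.9 in H4 and 12.5 in H4 88-1, and 10.6 in 42MGBA and 7.87 in 42MGBA 53-1. This was the reverse of the order of systems at CEBPB and CEBPD. At CAVIN1, a gene of cell surface caveolae 97.5 kb away, the strengths were 4.61, 5.44, 4.88 and 6.26, with each corrected line above its parent.

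The STAT3 medians were -0.064 for the H4 pair (25 pairs, 18 negative) and -0.11 for the 42MGBA pair (21 pairs, 13 negative), with none called. Between systems they were -0.35 and -0.46, where all merged pairs of chromosome 17 had -0.49 and -0.50. Relative to its chromosome STAT3 was at 0.13 and 0.040, and relative to pairs of similar size at -0.51 and -0.50. Its difference between systems was thus near that of chromosome 17 but not that of pairs of its size.

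BHLHE40, a repressor that binds E-boxes, lay on chromosome 3 at 5021122-5027008 on the plus strand (ENSG00000134107.5_6), with BHLHE40-AS1 at the same anchors. Of its 29 pairs, 25 ended 223 to 282 kb upstream at ITPR1, the gene of a calcium channel of the endoplasmic reticulum. The pair with the largest z-score ended 257 kb away inside ITPR1, at an annotated transcript start that need not be the gene's 5′ end. It had 8.03 in H4 and 12.03 in H4 88-1, and 10.7 in 42MGBA and 8.57 in 42MGBA 53-1. The corrected line was 1.499-fold above its parent in the H4 system and below its parent in the 42MGBA system.

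All 18 merged BHLHE40 pairs of the H4 pair were positive, with a median log2 ratio of 0.55 in a range of 0.29 to 0.73, and 2 were called. The median lay at the 93.0th percentile of genes, and it was 0.49 relative to pairs of similar size. In the 42MGBA pair the median of 20 pairs was -0.052 (0.012 relative to chromosome 3), with 8 positive and 12 negative and none called, at percentile 41.3 of the genes. Between the mutant lines all 18 pairs were positive, with a median of 0.43, and between the corrected lines the median was -0.076. All merged pairs of chromosome 3 had -0.29 and -0.41 in these comparisons. H4 was thus the low line at BHLHE40, as it was at the PTPN1 contact of CEBPB.

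**Figure D5:**
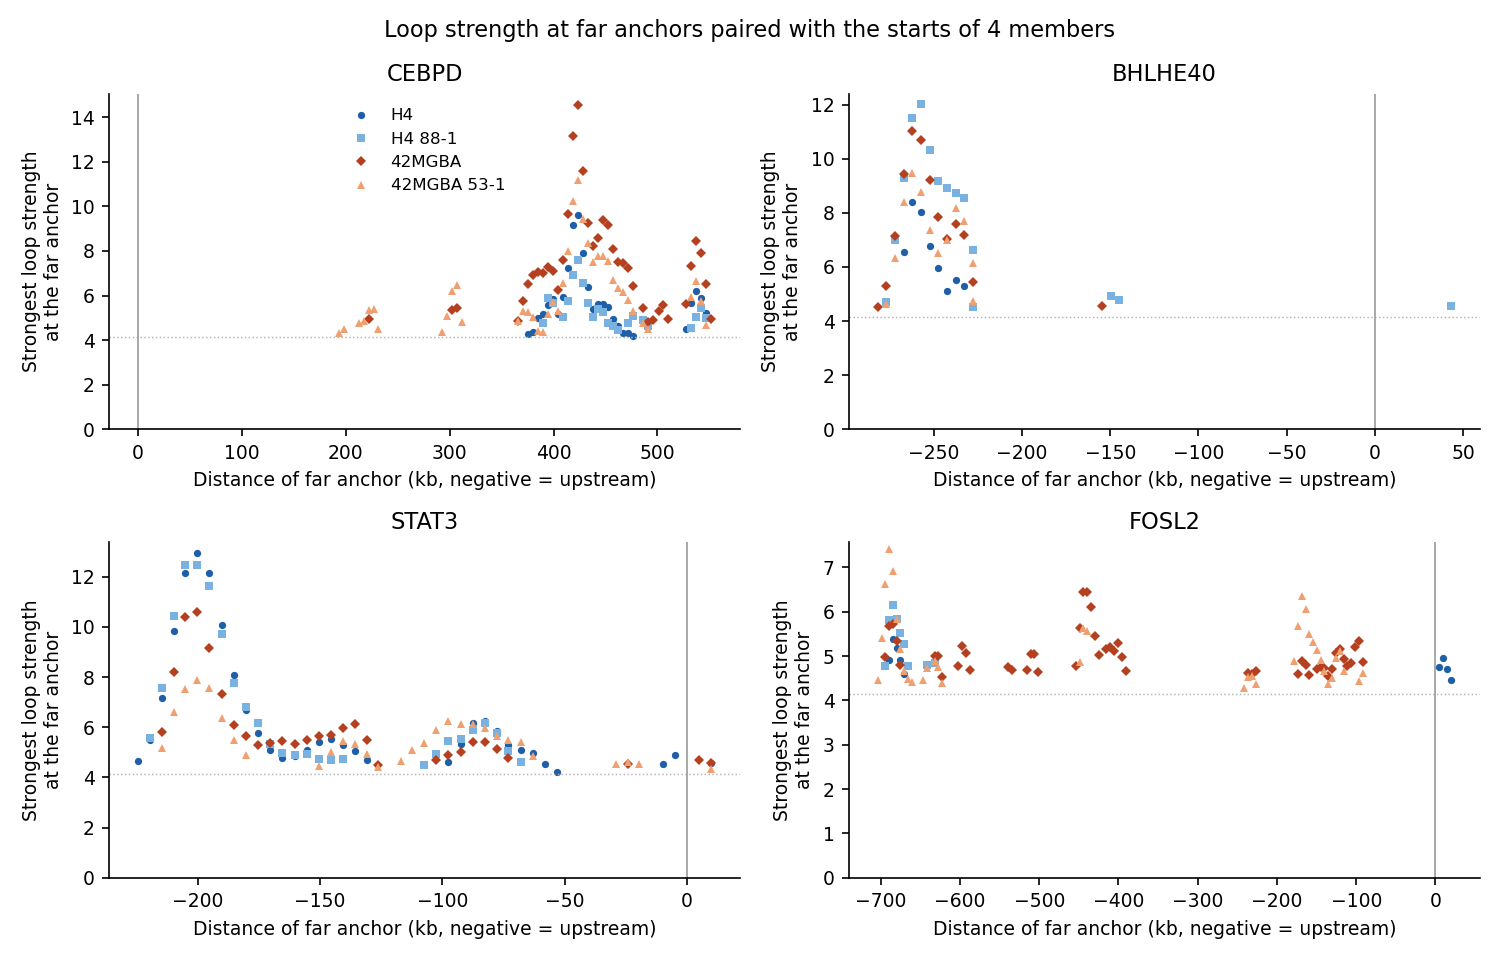
Loop strength (vertical axis, no unit) of the strongest pair at each 5 kb far anchor paired with the starts of CEBPD, BHLHE40, STAT3 and FOSL2 against its distance in kb, negative upstream, in the 4 cell lines (1 pooled list each); the dotted line marks 4.14. H4 88-1 was highest at BHLHE40 (12.03), 42MGBA at CEBPD (14.5), H4 at STAT3 (12.9) and 42MGBA 53-1 at FOSL2 (7.41).

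FOSL2, an AP-1 partner of JUN, lay on chromosome 2 at 28615315-28640184 on the plus strand (ENSG00000075426.12_7), with FOSL2-AS1 beside it. None of its 104 pairs was strong enough for the H4 merge. The contact 622 to 704 kb upstream, at MRPL33 and SLC4A1AP, reached 5.38 in H4 and 6.15 in H4 88-1, and 5.72 in 42MGBA and 7.41 in 42MGBA 53-1, so that each corrected line was above its parent. In the 42MGBA pair its 7 merged pairs were all positive, with a median of 0.37, where all pairs of that size had -0.12. With all 300000 listed pairs merged the FOSL2 median was -0.00062. The 30 pairs at 391 to 454 kb and the 30 at 86.9 to 178 kb, which end near or in BABAM2, were listed only in 42MGBA lines. In the farther stretch the strongest value was 6.44 in 42MGBA and 5.63 in 42MGBA 53-1, at neighbouring anchors. In the nearer stretch the lines differed in opposite directions at separate places. At 168 kb 42MGBA had 4.88 and 42MGBA 53-1 6.35, and at 96.7 kb they had 5.34 and 4.43. Only H4 listed 4 pairs inside the gene itself, up to 4.95. None of the FOSL2 pairs was called.

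The remaining members had weak and few loops. ATF3, a stress-induced factor, lay on chromosome 1 at 212738676-212794119 on the plus strand (ENSG00000162772.18_14). A far anchor 129 kb upstream of an inner start had 5.50 in H4 and 6.36 in H4 88-1, and 7.04 in 42MGBA and 7.74 in 42MGBA 53-1. It was the strongest in both corrected lines, while the neighbouring anchor was the strongest in H4 (5.56) and in 42MGBA (7.17). Only 42MGBA 53-1 listed the 9 pairs of the same far region with the 5′ end of ATF3, up to 6.10. All 10 merged pairs of the 42MGBA pair were positive, with a median of 0.35 at the 87.7th percentile, and none was called.

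FOS, the immediate early gene, lay on chromosome 14 at 75745529-75748933 on the plus strand (ENSG00000170345.10_7), and its 10 pairs ended near NEK9 and TMED10. At the NEK9 start, 151 kb away, the strengths were 4.68 in H4 and 5.49 in H4 88-1, and 4.83 in 42MGBA and 6.27 in 42MGBA 53-1. Both corrected lines were above their parents. FOSL1, an AP-1 gene linked to invasion, lay on chromosome 11 at 65659520-65668044 on the minus strand (ENSG00000175592.9_9). Its pair with the shared start of DRAP1 and C11orf68, 19.6 kb away, was 5.87 in 42MGBA 53-1 and absent from the other 3 lists. JUNB lay on chromosome 19 at 12902300-12904129 on the plus strand (ENSG00000171223.6_6). Its contact with the DHPS and WDR83 starts, 118 kb away, was 5.23 in H4, 5.05 in H4 88-1, absent from 42MGBA and 4.79 in 42MGBA 53-1, close to the lowest listed strengths.

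Across both isogenic pairs, 151 member pairs were merged in each. Of these 81 (53.6%) were negative in both and 29 (19.2%) positive in both, where 28.7% and 25.8% of all 68322 such pairs were. JUN gave 39 of the 81, CEBPB 18, CEBPD 14 and STAT3 10. None of the 151 was called in the same direction in both pairs. Of all 68322 such pairs only 81 were called higher in both and 171 lower in both. At such small shares, 0 of 151 says nothing particular about the members. A protein-coding start lay at the far anchor of 24.1% of member pairs, against 20.2% of all pairs with a protein-coding start, and the share ran from 0 of 24 at ATF3 to 71 of 103 at STAT3.

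Genes that work with the members were counted the same way, to be read against the calls over all merged pairs, 1.94% higher and 2.17% lower for the H4 pair, and 1.61% higher and 2.45% lower for the 42MGBA pair. Of 17 genes of the IL-6 and JAK pathway, 14 had merged pairs in the H4 pair, with 0 of 211 called higher and 1 lower. Of 283 pairs in the 42MGBA system, 19 (6.71%) were called higher and 1 lower. Those called higher were 11 of 49 pairs of IL6, the cytokine upstream of STAT3, 6 of the oncostatin M receptor gene OSMR and 2 of 84 of the shared receptor gene IL6ST. OSMR had the highest median of the list there, 0.66 over 24 pairs, and LIF, a cytokine of the same family, the lowest, -0.43 over 10. In the H4 pair CNTFR was highest (0.60 over 6 pairs) and PIAS3, an inhibitor of STAT3, lowest (-0.58 over 8).

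Among 21 other AP-1 and ATF genes, 1 of 93 pairs was called higher and 2 lower in the H4 pair, and 2 of 104 were called higher in the 42MGBA pair. The 2 belonged to FOSB, which had the highest median there, 0.56 over 13 pairs. ATF4 was highest in the H4 pair (0.61 over 6 pairs, 1 called higher) and MAF lowest (-0.51, 1 pair). The other CEBP and STAT genes had no call within either isogenic pair. CEBPE was the only CEBP gene with merged pairs, at 0.0052 and -0.13 for H4 and 42MGBA. Of the STAT genes, STAT4 (0.068 over 19 pairs) was highest and STAT5B (-0.63, 1 pair) lowest for H4, and STAT6 (0.51, 1 pair) highest for 42MGBA.

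Of the other helix-loop-helix repressors, HES1 had 9 of 23 pairs and BHLHE41 2 of 21 called higher in the H4 pair, with medians of 0.45 and 0.016. BHLHE41 also had 1 of 33 called lower in the 42MGBA pair, where its median was -0.29, the lowest of the list, and that of HEY1 was the highest, 0.16. Of 20 mesenchymal regulators and targets, RUNX1 was called in both pairs, with 2 of 25 lower in the H4 pair and 9 of 80 lower in the 42MGBA pair. Its medians were -0.084 and -0.38. CD44, a mesenchymal surface marker, had the highest median in the H4 pair, 0.70 with 4 of 12 called higher, and -0.29 in the 42MGBA pair. ANXA1 was lowest in the H4 pair (-0.57). TGFBI was highest (0.39) and FN1 lowest (-0.39) in the other system.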

How the data were processed

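Hi-C lists of 4 cell lines were analysed, and the 12 RNA-seq samples were not analysed here. The strength of a loop was deposited as a signal without unit, which the authors made by aligning reads trimmed to 36 bases to hg19 with bowtie, assigning read pairs to 5 kb anchors, correcting biases with HiCorr and enhancing the result with LoopEnhance of DeepLoop. The authors pooled 2 replicates per line and listed the 300000 strongest pairs, without read counts, so the depth behind a value is unknown and no interval could be given. LoopEnhance smooths neighbouring anchors, so neighbouring pairs are not independent.

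Start sites came from GENCODE release 44 lifted to hg19, and pair size was measured from midpoint to midpoint of the anchors. The 10 genes, the gene lists and the rule for named pairs were chosen with earlier results of these data known. Named were, for each member and comparison, the pair with the largest z-score in each direction and the strongest pair of each line, with the genes at their far anchors, local maxima of strength within 50 kb, related genes called in both isogenic pairs or with the highest or lowest median of a list in an isogenic pair, and the 3 genes most like JUN. Some values of the related gene lists are not reported here. The calls use the two-sided 0.05 cutoff on a z-score that the study's methods give, and the form of the regression was chosen here. The calls were run on simulated strengths with planted differences, which checked only their sign and the code. The simulated pairs varied independently of each other, unlike the listed ones, so the run does not show how reliable the calls are. The local maxima, the same-size medians, the 5′ end counts and the CTCF core were added after the values were seen. Alternatives changed the regression, scale, number of merged pairs, absent pairs, window and centring. Python 3.11.15 with numpy 2.4.6, pandas 2.3.3 and matplotlib 3.10.9 was used.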

Additional observations from a re-analysis of the deposited data

Results flagged for a closer look

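BHLHE40 stood out because its merged pairs, all of which lay in the ITPR1 contact, had medians of opposite sign in the isogenic pairs. The median log2 ratio was 0.55 over 18 pairs in the H4 pair and -0.052 over 20 pairs in the 42MGBA pair, a difference of 0.60. In the 42MGBA pair 8 were positive and 12 negative with none called, and relative to its chromosome the median was 0.012, so that the opposite sign was lost. Members and contacts were set out here when they had at least 5 merged pairs in each system, medians of opposite sign and a difference of at least 0.4. With 1 pooled list per line the difference was not tested.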

How the results depend on the processing

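No paired analysis was possible because the replicates of each line were pooled in the deposited lists, and for the same reason no replicate was left out. No alternative changed the sign of the members' median log2 ratio in the 4 comparisons. Every alternative stayed within the spread between genes, the standard deviation of their medians, which was 0.31 to 0.35. That spread is wider than the isogenic medians of -0.088 and -0.081 themselves, so it is a weak check there. It also covered the fall from 0.42 to 0.11 between the mutant lines with centring by chromosome.

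The number of merged pairs followed the window and the merge. When an anchor had to overlap a start it was 94 for the H4 pair and 188 for the 42MGBA pair, and 275 and 544 within 10 kb. It was 288 and 512 with the 200000 strongest merged, 393 and 694 with all 300000, and 11 and 24 when neighbouring pairs were joined.

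In the H4 pair, calls of higher strength numbered 2 with z-scores of log2 ratios, 15 with 200000 merged and 3 with overlapping starts. Lower calls numbered 0 with an intercept, 0 on the log2 scale, 12 with 200000 merged, 0 with overlapping starts, 5 within 10 kb, 8 centred by chromosome and 6 centred by size. In the 42MGBA pair, higher calls numbered 13 with an intercept, 0 on the log2 scale, 5 with 200000 merged, 3 with pairs listed in both lines, 0 with overlapping starts, 2 within 10 kb, 7 centred by chromosome and 3 centred by size. Lower calls numbered 31 with 200000 merged, 10 with overlapping starts and 28 within 10 kb. Between the mutant lines, higher calls numbered 38 with an intercept, 4 on the log2 scale, 41 with 200000 merged, 7 with overlapping starts, 23 within 10 kb and 7 centred by chromosome. Between the corrected lines they numbered 28, 3, 27, 5, 25 and 9 in the same order, and 1 lower call appeared with 200000 merged.

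Of gene medians over 0.1 in size, centring by size turned those of JUN (0.037) and ATF3 (-0.046) in the H4 pair and of ATF3 between the mutant lines (-0.037). Centring by chromosome turned CEBPB (-0.031) and STAT3 (0.13) between the mutant lines and FOS (-0.21) and STAT3 (0.040) between the corrected lines. Merging all 300000 pairs turned FOSL2 in the 42MGBA pair (-0.00062) and FOS between the corrected lines (-0.019). Of smaller ones, centring by chromosome turned JUN (0.022 to -0.20) and BHLHE40 (-0.076 to 0.33) between the corrected lines and BHLHE40 in the 42MGBA pair (-0.052 to 0.012), and merging all 300000 pairs turned CEBPB in the H4 pair (-0.0043 to 0.031). Beyond the construction of each setting, the cause was not tested.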
